A study of Mus musculus with 5 samples.

Results

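Heat shock proteins and their DnaJ cochaperones were compared between Dicer-deficient and wild-type mouse embryonic stem (ES) cells, the pluripotent cells of the early embryo. The genes were taken by symbol from the array annotation: all Dnaja, Dnajb, Dnajc, numbered Hspa and Hspb genes, Hsph1, Hspd1, Hspe1 and the Hsp90a genes, without the stress-response genes Hspa5 and Dnajb9. This gave 67 genes of 19938 with a probe set of their own. Hsp90ab1 and Hspa1b had no probe set named for them alone and are not analysed here.

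RNA came from asynchronous cultures grown feeder-free in an equal mixture of serum with LIF and N2B27 with 2i, a serum-free medium that holds kinase inhibitors. There were 2 arrays of Dicer-deficient cells, which lack the ribonuclease that makes mature microRNAs, and 3 arrays of wild-type cells, and the series' design text calls the cultures biological replicates. That text gives 3 Dicer-deficient cultures, of which the third is not analysed here. The labels name neither the lines or clones nor the deleted part of Dicer1, so effects of Dicer loss and other differences between the cells cannot be told apart. The early G1 cultures of the design text are not analysed here.

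Molecular chaperones keep newly made and damaged proteins from clumping and help them fold. HSP70 proteins bind and release unfolded stretches in a cycle driven by ATP. DnaJ proteins, named after their J domain, bring clients to HSP70 and switch on its ATPase, and HSP110 proteins exchange its nucleotide. HSP90 finishes the folding of kinases and receptors, the HSP60 and HSP10 chaperonin folds proteins inside mitochondria, and small heat shock proteins hold unfolded clients without ATP. Many of these genes are induced by the transcription factor HSF1 when proteins unfold.

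Values are the deposited normalized log2 signals, and a change is the Dicer-deficient mean minus the wild-type mean on that scale. A gene was called where its Benjamini-Hochberg adjusted p over all genes in limma was under 0.05. At an unadjusted limma p under 0.05, 2719 of all 19938 genes were higher and 2826 lower, the background for counts at that cutoff. Dicer1 itself had signals of 7.20 and 6.84 in Dicer-deficient cells, against 8.84, 8.82 and 8.85 in wild-type cells (log2 change -1.82, SE 0.112, adjusted p = 0.000129). Array medians ran from 5.39 to 5.45, and precision is limited by how few arrays there are. All 12 measured ES cell markers had a signal above the median of all probe sets, 5.40, on at least 1 array, and their mean lay between 10.2 and 10.4 in Dicer-deficient cells and between 10.3 and 10.5 in wild-type cells, with 1 called higher and 3 lower. Of 10 trophectoderm markers, Krt8, Gata3 and Krt18 were called higher and 0 lower by limma (3 higher and 1 lower at an unadjusted p under 0.05), and the list's mean lay between 6.29 and 6.38 in Dicer-deficient cells and between 6.0 and 6.13 in wild-type cells. Feeder fibroblast markers had 0 of 14 higher and 1 lower, Fn1, and primitive endoderm markers 0 of 10 higher and 1 lower, Lama1. Below the 5.40 median on every array were 6 feeder, 2 trophectoderm and 6 primitive endoderm markers. Most feeder and trophectoderm markers thus also reached it on at least 1 array. The part of these markers in the chaperone results was not tested, and in such bulk RNA fewer cells of a type and less RNA per cell cannot be told apart.

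The chaperone genes shifted by small amounts in both directions. Of the 67 genes, 11 were called higher in Dicer-deficient cells, 5 lower and 51 did not pass. The higher ones were Dnajb14, Dnajc5b, Hspa13, Hspa2, Hsph1, Dnajc3, Dnajb4, Dnajc21, Dnajc13, Dnajc16 and Dnaja2, with log2 changes between 0.28 and 0.56. The lower ones were Dnajc15, Dnajc22, Hspe1, Dnajc4 and Dnajc5, with changes between -1.08 and -0.31. The genes called made up 23.9% of the chaperone genes, against a background of 17.1% of all 19938 genes, with 16.4% against 8.48% higher and 7.46% against 8.6% lower. Most chaperone genes had a mean signal above the median of all probe sets. Among these 52, 14 were called (26.9%), against 27.9% of the 11201 genes tested that lie above it, so the share called did not stand out from that of genes of like signal. A change of at least 1.5-fold was called for 2 of the 67 genes (2.99%), Dnajc15 and Dnajc22, against 7.43% of all genes. The median change was 0.02 over the chaperone genes and 0.01 over all genes, and the median size of a change regardless of sign was 0.157 and 0.115.

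**Figure D1:**
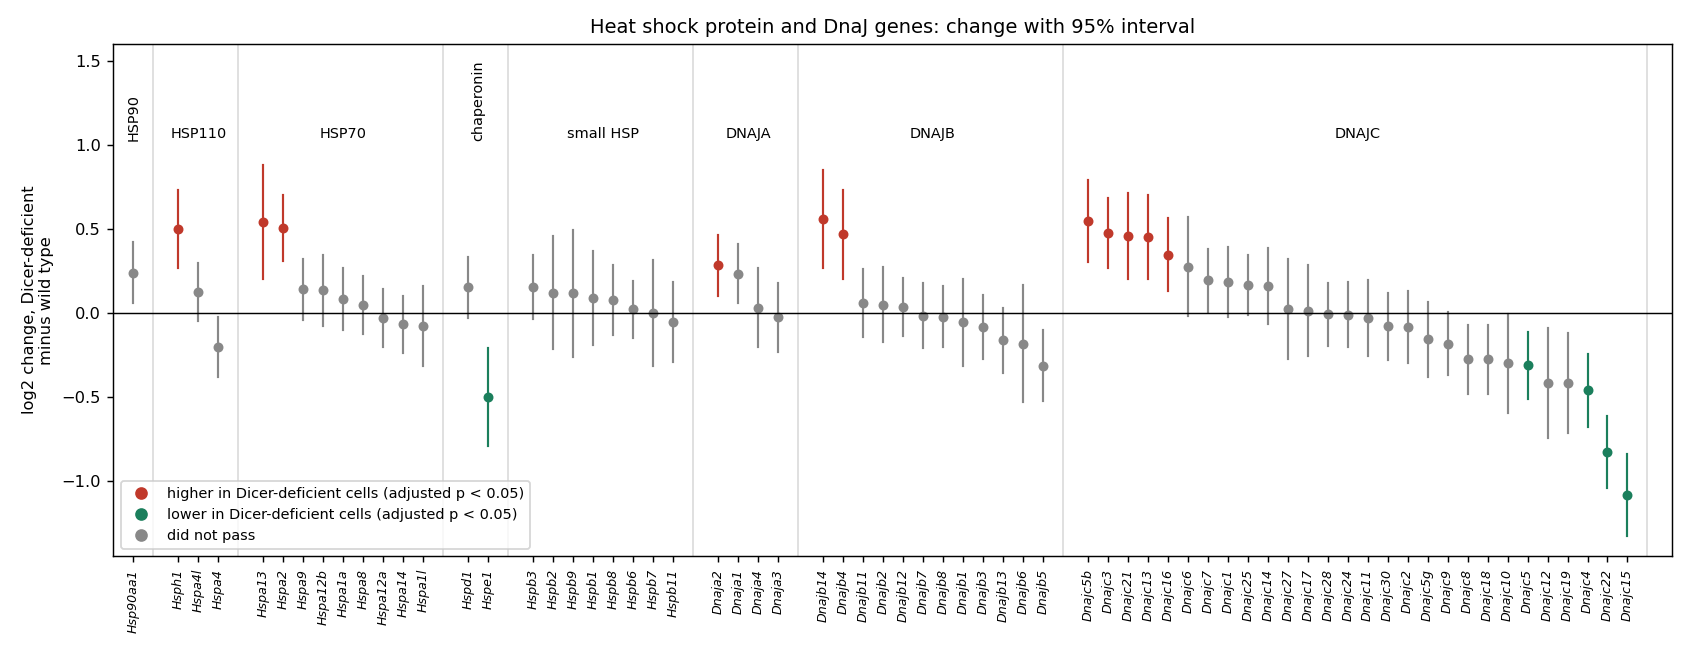
Log2 change, Dicer-deficient minus wild type, of the 67 genes by family. Points are limma estimates and bars their 95% intervals. Red marks the 11 genes called higher and green the 5 called lower, and Dnajc15 and Dnajc22 stand lowest at -1.08 and -0.83.

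Both Dicer-deficient values lay outside the wild-type range for 37 of the 67 genes, 22 above it and 15 below it. Over all genes this separation was seen for 39.9%, with 20% above and 19.9% below. Its share among genes of like signal was not computed, so no excess is read from these counts. All 16 called genes were among the 37, and so were 21 of the genes that did not pass. With 2 arrays against 3, most calls leaned on single arrays, named here KO1 and KO2 for the Dicer-deficient cells and WT1 to WT3 for wild type. Of the 16 calls, 9 were kept without WT1, 5 without WT2 and 10 without WT3. Only Dnajc15 and Dnajc22 kept theirs without KO1, and only these and Dnajb14 without KO2. These fits leave 1 Dicer-deficient array, assumed to vary as the wild-type arrays do, which alone give the spread. The direction of all 16 was kept in each of these fits. Since their groups did not overlap, leaving out an array could not reverse it, so this adds no support.

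Among the ATP-driven chaperones, the HSP110 gene Hsph1 rose. Hsph1, a nucleotide exchange factor for HSP70, had signals of 10.51 and 10.75 in Dicer-deficient cells, against 10.17, 10.18 and 10.04 in wild-type cells. Both Dicer-deficient arrays lay above all wild-type arrays, a 1.41-fold higher level (log2 change 0.50, SE 0.0991, adjusted p = 0.0125). The call did not hold without WT2 (adjusted p = 0.0578), KO1 (0.0505) or KO2 (0.118, with a log2 change of 0.38). Its relatives did not pass: Hspa4 had 10.94 and 10.93 in Dicer-deficient cells and 11.10, 11.19 and 11.13 in wild-type cells (log2 change -0.205, adjusted p = 0.12, or 0.0425 with an intensity trend), and Hspa4l had a change of 0.12. The 3 HSP110 genes therefore included values of both signs. The groups did not overlap for any of them, which also held for 39.9% of all genes. Both means of Hspa4l fell short of the 5.40 median, so a signal above background was not shown for it.

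Hspa2, an HSP70 known from male germ cells, where it is needed for spermatogenesis, had 6.72 and 6.79 in Dicer-deficient cells, against 6.15, 6.30 and 6.30 in wild-type cells. The groups did not overlap, and the level was 1.42-fold higher (log2 change 0.505, SE 0.0849, adjusted p = 0.0063). Without KO1 or KO2 the adjusted p was 0.0698 and 0.0862. Hspa13, an HSP70 relative of the endoplasmic reticulum (ER) that lacks the usual substrate-binding domain, had 7.65 and 7.53 in Dicer-deficient cells and 7.26, 7.13 and 6.76 in wild-type cells (log2 change 0.54, SE 0.145, adjusted p = 0.0408). The wild-type values spread widely, WT3 being the lowest, and the call did not hold without WT1 (adjusted p = 0.0503), WT2 (0.124), KO1 (0.321) or KO2 (0.224).

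Hspa8, Hspa9 and Hsp90aa1, abundant chaperones of the cytosol and mitochondrion, were not called. Hspa8, the constitutive HSP70, had 13.24 and 13.29 in Dicer-deficient cells, against 13.22, 13.20 and 13.23 in wild-type cells, with a 95% interval of the change from -0.12 to 0.22. Hspa9, the mitochondrial HSP70, had 11.93 and 12.05 in Dicer-deficient cells and 11.85, 11.86 and 11.84 in wild-type cells (log2 change 0.14, interval -0.04 to 0.32). Hsp90aa1, the inducible cytosolic HSP90, had 13.64 and 13.53 in Dicer-deficient cells, against 13.33, 13.35 and 13.36 in wild-type cells. Its groups did not overlap, but the change of 0.24 did not pass in the main test (adjusted p = 0.0801). It passed with an intensity trend in the variance model (adjusted p = 0.00691) and with array weights (0.0494). Hspa1a, the stress-induced HSP70, had 6.68 and 6.67 in Dicer-deficient cells and 6.60, 6.52 and 6.66 in wild-type cells (log2 change 0.08, adjusted p = 0.615). A probe set shared by Hspa1a and its near-identical neighbour Hspa1b had a change of -0.09. Hspa1l, Hspa12a, Hspa12b and Hspa14 had changes between -0.08 and 0.13, and none of these 4 passed.

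**Figure D2:**
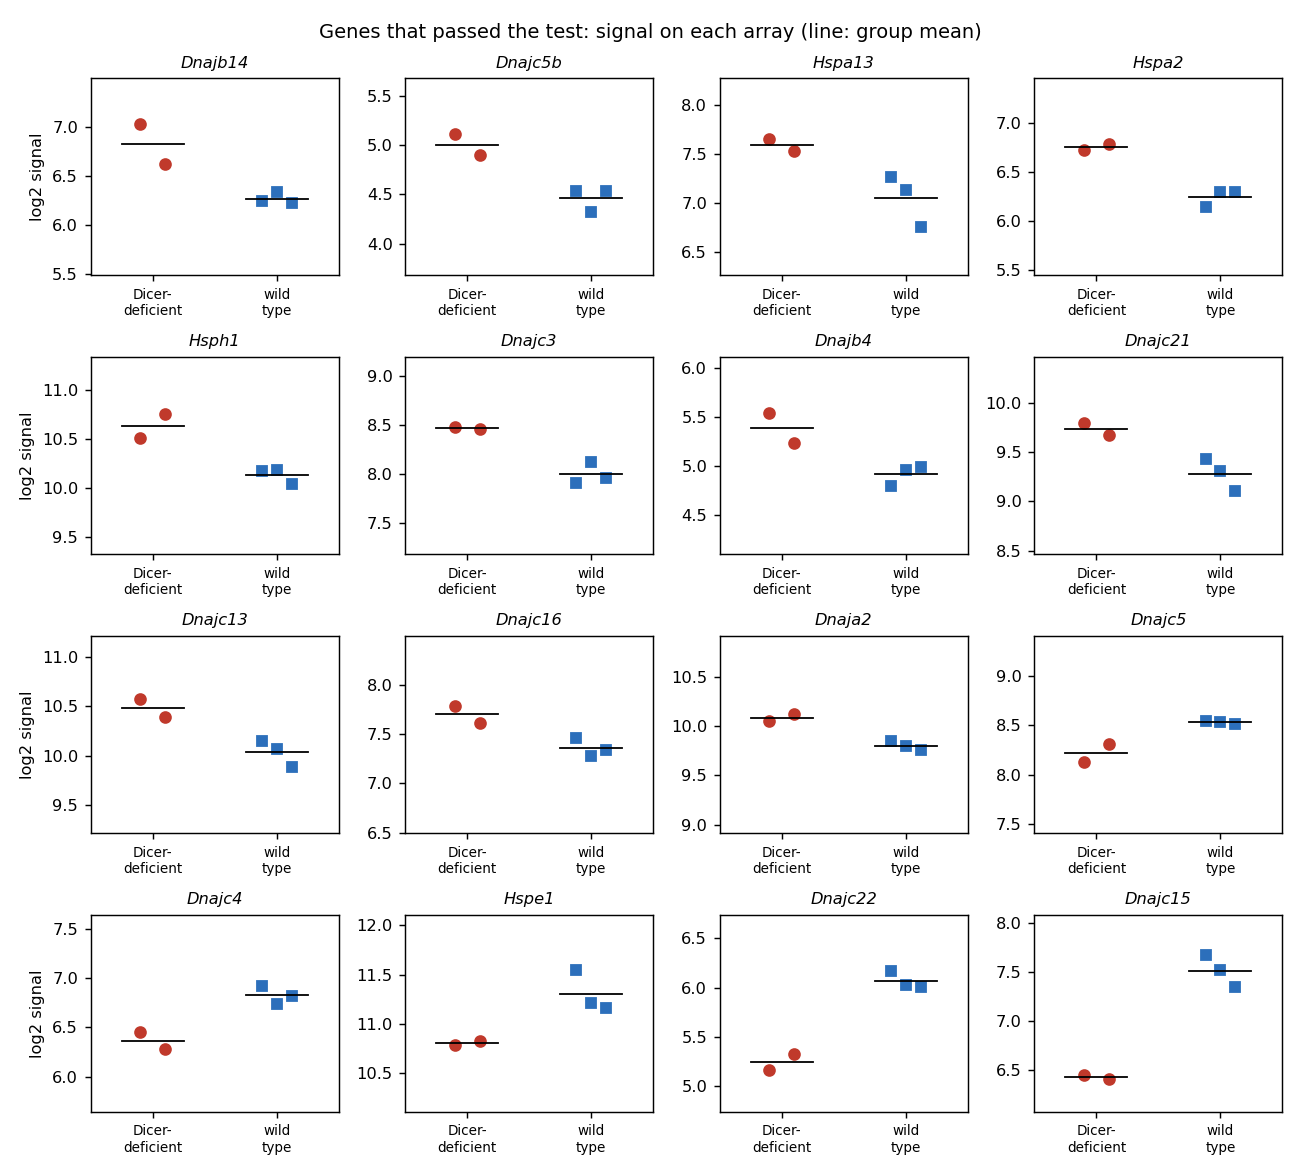
Log2 signal on each array of the 16 genes that passed the test, ordered by their change. Red circles are the 2 Dicer-deficient arrays, blue squares the 3 wild-type arrays and lines the group means, and every vertical axis spans the same range of signal. The red points lie above the blue ones in the first 11 panels and below them in the other 5.

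Of the mitochondrial chaperonin pair, Hspe1 was called lower and Hspd1 was not called. Hspe1, the HSP10 lid of the chamber, had 10.78 and 10.83 in Dicer-deficient cells, against 11.55, 11.21 and 11.16 in wild-type cells. It was 1.42-fold lower in Dicer-deficient cells (log2 change -0.50, SE 0.124, adjusted p = 0.0303), with WT1 well above the other wild-type arrays. Without that array the change was -0.38 and the call was kept, while it was lost without WT2 (adjusted p = 0.0877), KO1 (0.249) or KO2 (0.208). Hspd1, the HSP60 that forms the chamber, had 12.02 and 12.13 in Dicer-deficient cells and 11.92, 11.94 and 11.91 in wild-type cells (log2 change 0.15, adjusted p = 0.268). The Hspd1 signal minus the Hspe1 signal within an array was 1.24 and 1.30 in Dicer-deficient cells, against 0.37, 0.73 and 0.75 in wild-type cells. The group means of this difference lay 0.65 apart. Both Dicer-deficient values lay above the wild-type range for Hspd1 and below it for Hspe1, so the difference had to separate the groups. An exact two-sided permutation test gave p = 0.1, the smallest that 2 against 3 arrays allow. It therefore adds no support beyond the values of the 2 genes. The second probe set of each gene gave similar values, with changes of -0.485 for Hspe1 and 0.19 for Hspd1.

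**Figure D3:**
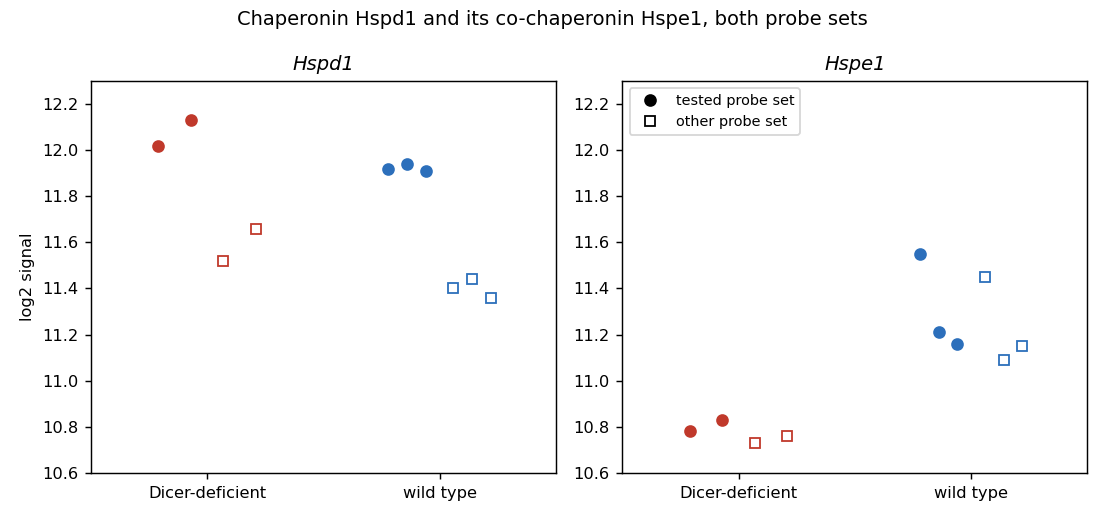
Log2 signal of both probe sets of Hspd1 (left) and Hspe1 (right) on each array, Dicer-deficient in red and wild type in blue. Filled circles are the tested probe sets and open squares the others. For Hspe1 all Dicer-deficient points lie below the wild-type points of the same probe set, and for Hspd1 they lie above them.

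Hspd1 and Hspe1 lie head to head and share one short promoter, which is why its sequence is shown, together with that of Hsph1, the called HSP110 gene, and of Dnajb6. These are the 4 genes with a three-unit heat shock element, the binding motif of HSF1, in their RefSeq promoter windows. A window runs from 250 bases before to 50 bases after a gene's start in GRCm38.p6, and 54 of the 67 genes have one. Capitals mark matches to GAANNTTCNNGAA or its reverse complement TTCNNGAANNTTC, which may overlap each other.
Hspe1 promoter, chr1:55087898-55088197, plus strand: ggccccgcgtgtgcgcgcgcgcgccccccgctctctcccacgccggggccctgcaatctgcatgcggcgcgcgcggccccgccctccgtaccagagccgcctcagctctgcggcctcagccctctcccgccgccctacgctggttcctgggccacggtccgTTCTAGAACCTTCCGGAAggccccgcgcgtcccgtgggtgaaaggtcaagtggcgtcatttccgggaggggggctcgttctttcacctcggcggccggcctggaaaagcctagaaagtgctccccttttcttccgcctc
Hsph1 promoter, chr5:149636266-149636565, minus strand: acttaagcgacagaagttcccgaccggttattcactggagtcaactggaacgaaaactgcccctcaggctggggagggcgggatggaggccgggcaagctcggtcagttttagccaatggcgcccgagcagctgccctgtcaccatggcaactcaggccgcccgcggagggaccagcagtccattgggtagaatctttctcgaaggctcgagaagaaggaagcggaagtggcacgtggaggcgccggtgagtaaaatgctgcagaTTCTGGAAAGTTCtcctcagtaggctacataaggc
Dnajb6 promoter, chr5:29735648-29735947, plus strand: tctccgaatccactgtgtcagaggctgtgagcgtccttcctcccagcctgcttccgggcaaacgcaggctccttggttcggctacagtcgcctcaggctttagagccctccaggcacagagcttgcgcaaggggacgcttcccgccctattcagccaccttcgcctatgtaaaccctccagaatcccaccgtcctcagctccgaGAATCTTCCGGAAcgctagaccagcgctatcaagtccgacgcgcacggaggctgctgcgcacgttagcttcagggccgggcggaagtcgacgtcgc
In Hspe1 the 2 overlapping matches span positions -89 to -72 relative to the start, and the same bases lie at -144 to -127 of Hspd1 on the other strand. In the windows shown, the matches lie at 15 to 27 in Hsph1, inside the transcribed part, and at -46 to -34 in Dnajb6. Relative to another RefSeq start of each gene, the same bases lie at 36 to 48 in Hsph1 and at -127 to -115 in Dnajb6. The element was found in 4 of the 54 chaperone genes (7.41%) and in 179 of 27025 genes with a window (0.662%). Of these 4, Hsph1 was called higher, Hspe1 lower, and Hspd1 and Dnajb6 were not called. The shorter two-unit form, GAANNTTC or TTCNNGAA, which every three-unit match contains, was in 15 of 54 (27.8%) and in 17% of all genes with a window. It was in 2 of 9 such genes called higher, Hsph1 and Dnajb4, in 1 of 3 called lower and in 12 not called. A match in these letters is a description and was not tested as a binding site.

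None of the 8 Hspb genes, the small heat shock proteins by symbol, was called by limma, and 0 had an unadjusted p under 0.05. Cryab, a small heat shock protein outside the symbol rule, was called higher (log2 change 0.59, limma adjusted p = 0.0145). That call did not hold without WT2, and the gene is described with the HSF1 targets below. Hspb1, the widely expressed HSP27 relative, had 10.89 and 10.95 in Dicer-deficient cells, against 11.05, 10.80 and 10.65 in wild-type cells, so the groups overlapped. Hspb8, a partner of BAG3 in autophagy, had a change of 0.075 with an interval from -0.13 to 0.28. Changes of the 8 lay between -0.06 and 0.155, and only Hspb3, at the upper end, had groups that did not overlap. Hspb11, listed by its name, is a subunit of the intraflagellar transport machinery.

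The class A and B DnaJ proteins hold the general cochaperones of HSP70. Dnaja2, a cytosolic one, had 10.05 and 10.12 in Dicer-deficient cells, against 9.85, 9.80 and 9.76 in wild-type cells (log2 change 0.28, SE 0.0775, adjusted p = 0.0448). It lost its call without any 1 of the 5 arrays (adjusted p from 0.074 to 0.195). Dnaja1, its close relative, had 10.37 and 10.35 in Dicer-deficient cells and 10.13, 10.16 and 10.09 in wild-type cells, with no overlap but adjusted p = 0.0761. Its other probe set had 7.43 and 7.60 in Dicer-deficient cells, against 7.12, 7.04 and 6.87 in wild-type cells, a change of 0.505 that passed when it stood for the gene (adjusted p = 0.014). Dnaja3, a mitochondrial DnaJ, and Dnaja4 had changes of -0.03 and 0.03. The stress-induced Dnajb1 had 8.0 and 8.22 in Dicer-deficient cells and 8.29, 8.20 and 8.01 in wild-type cells, with overlapping groups (log2 change -0.06, interval -0.32 to 0.20).

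Dnajb14, anchored in the ER membrane with its J domain facing the cytosol, had the largest rise among the chaperone genes. Its signals were 7.03 and 6.62 in Dicer-deficient cells, against 6.24, 6.34 and 6.22 in wild-type cells (log2 change 0.56, SE 0.124, adjusted p = 0.0201). The Dicer-deficient arrays differed from each other, and without KO1 the change was 0.35 (adjusted p = 0.125). The call was also lost without any 1 of the wild-type arrays (adjusted p from 0.0778 to 0.0912). Dnajb4, a cytosolic DnaJ, had 5.54 and 5.23 in Dicer-deficient cells and 4.80, 4.96 and 4.99 in wild-type cells (log2 change 0.47, SE 0.114, adjusted p = 0.0282). Both group means fell short of the 5.40 median, so a signal above background was not shown, and the call did not hold without any 1 of the 5 arrays (adjusted p from 0.0608 to 0.216). Dnajb5 had 5.92 and 6.09 in Dicer-deficient cells, against 6.37, 6.23 and 6.36 in wild-type cells, and missed the threshold (log2 change -0.315, adjusted p = 0.0526), but passed after a further quantile normalization (0.0448) and without dim genes (0.0345). The other 9 class B genes had changes between -0.18 and 0.06 and were not called.

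For Dnajb6 and Dnajb14 other probe sets disagreed with the tested ones. Dnajb6, a suppressor of protein aggregation, had a change of -0.18 on its own probe set, with 7.01 and 6.89 in Dicer-deficient cells and 7.36, 7.21 and 6.83 in wild-type cells. The 4 probe sets named for both Gm4247 and Dnajb6 had changes between 0.33 and 0.36, and one of them had 11.38 and 11.36 in Dicer-deficient cells, against 11.14, 11.05 and 10.93 in wild-type cells. The 2 probe sets named for Dnajb14 and Pin4 had changes of -0.34 and -0.30, opposite to that of Dnajb14 alone. None of these 6 passed in a fit over all probe sets (adjusted p from 0.0613 to 0.0962), and which of the named genes they read was not tested.

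**Figure D4:**
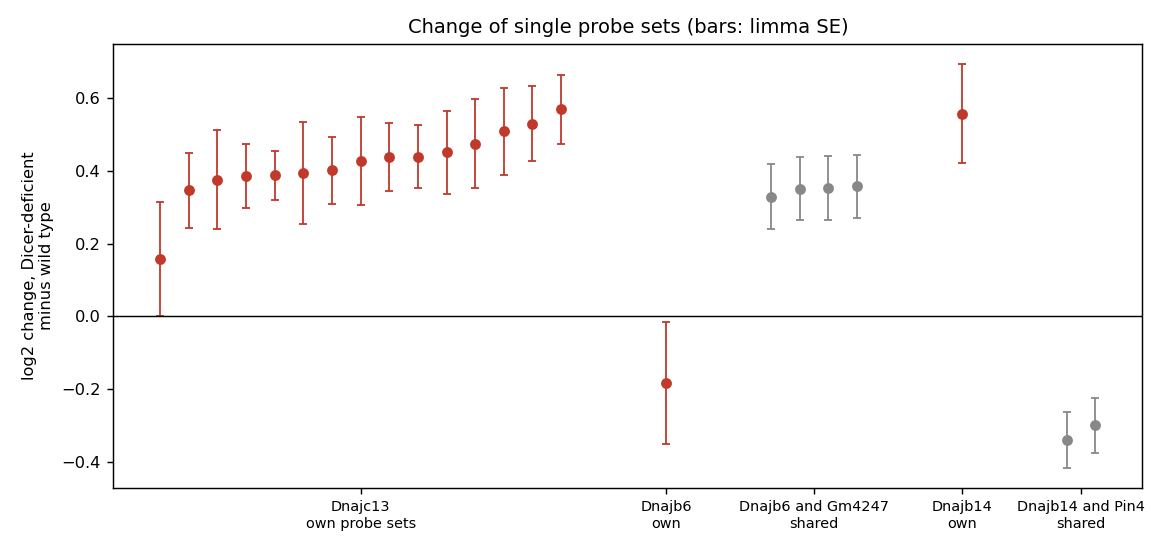
Log2 change, Dicer-deficient minus wild type, of single probe sets of Dnajc13, Dnajb6 and Dnajb14. Red points are probe sets named for the gene alone, grey ones those shared with another gene, and bars are limma SEs. All 15 Dnajc13 points lie above 0, while the own and the shared points of Dnajb6, and of Dnajb14, lie on opposite sides of 0.

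The class C DnaJ proteins, which share little beyond the J domain and mostly serve one place or task, held 9 of the 16 calls and 28 of the 67 genes. Of the 28, 5 were called higher, 4 lower and 19 did not pass, so 32.1% were called, against 17.1% of all genes and 27.9% of those above the median signal. Dnajc15, a DnaJ of the mitochondrial inner membrane that serves protein import, had 6.45 and 6.41 in Dicer-deficient cells, against 7.67, 7.52 and 7.35 in wild-type cells. The groups lay far apart, and the level was 2.12-fold lower in Dicer-deficient cells (log2 change -1.08, SE 0.105, adjusted p = 0.000595). Its call held without each array in turn (adjusted p from 0.0037 to 0.0398). The gene lies on chromosome 14, where 138 of 698 genes tested were called lower (19.8%) and 41 higher (5.87%), against 8.19% lower and 8.57% higher among the other genes. The part of this in the Dnajc15 result was not tested, and Dnajc3, called higher, and Dnajc9, not called, lie there too. Dnajc19, its paralogue at the inner membrane, had 5.33 and 5.68 in Dicer-deficient cells and 5.80, 6.07 and 5.90 in wild-type cells (log2 change -0.42, adjusted p = 0.0634). It passed without dim genes (adjusted p = 0.0317) and with array weights (0.0259).

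Dnajc22, a membrane DnaJ whose Drosophila relative wurst acts in clathrin-mediated endocytosis, had 5.16 and 5.32 in Dicer-deficient cells, against 6.17, 6.03 and 6.01 in wild-type cells. It was lower in Dicer-deficient cells by a log2 change of -0.83 (SE 0.0915, adjusted p = 0.00101) and kept its call without each array in turn. The Dicer-deficient mean, 5.24, fell short of the 5.40 median, so a signal above background was not shown there and the size of the fall is uncertain. Dnajc4 had 6.45 and 6.28 in Dicer-deficient cells and 6.92, 6.74 and 6.82 in wild-type cells (log2 change -0.46, SE 0.0931, adjusted p = 0.0135). Its call did not hold without WT1 (adjusted p = 0.0545), KO1 (0.0706) or KO2 (0.135).

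Of the 3 genes of cysteine string proteins, DnaJ proteins of secretory vesicles, 1 was called lower and 1 higher. Dnajc5, the widely expressed one, had 8.13 and 8.31 in Dicer-deficient cells, against 8.55, 8.54 and 8.51 in wild-type cells (log2 change -0.31, SE 0.0847, adjusted p = 0.042). Its call did not hold without any 1 of the 5 arrays (adjusted p from 0.0689 to 0.208). Dnajc5b, known mainly from testis, had 5.11 and 4.90 in Dicer-deficient cells and 4.53, 4.32 and 4.53 in wild-type cells (log2 change 0.545, SE 0.105, adjusted p = 0.0111). Both its means fell short of the 5.40 median, and the call did not hold without WT2 (adjusted p = 0.0556), KO1 (0.141) or KO2 (0.0667). The third relative, Dnajc5g, had a change of -0.16 and did not pass.

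Dnajc3, the p58IPK cochaperone of the ER lumen, rose in Dicer-deficient cells. It had 8.48 and 8.46 in Dicer-deficient cells, against 7.91, 8.12 and 7.96 in wild-type cells, a 1.39-fold higher level (log2 change 0.47, SE 0.0892, adjusted p = 0.0102). Without KO1 or KO2 the adjusted p was 0.117 and 0.103. Its promoter is shown because, of the 54 genes with a window, Dnajc3 alone had a match to the ER stress element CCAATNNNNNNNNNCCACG, searched on both strands. The element was found in 37 of 27025 genes (0.137%), and capitals mark the match, at -105 to -87.
Dnajc3 promoter, chr14:118937682-118937981, plus strand: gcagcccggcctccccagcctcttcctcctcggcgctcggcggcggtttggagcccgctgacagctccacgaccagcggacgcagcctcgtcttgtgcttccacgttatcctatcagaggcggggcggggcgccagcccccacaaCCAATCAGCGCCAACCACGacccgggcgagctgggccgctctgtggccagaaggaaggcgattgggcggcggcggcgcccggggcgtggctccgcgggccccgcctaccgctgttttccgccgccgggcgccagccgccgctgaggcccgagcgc
Dnajc13, an endosomal DnaJ also called RME-8, had 10.58 and 10.39 in Dicer-deficient cells and 10.15, 10.07 and 9.88 in wild-type cells (log2 change 0.45, SE 0.107, adjusted p = 0.0261). In a limma fit over all probe sets, its tested probe set did not pass (adjusted p = 0.0832), while 4 of its others did. All of its 15 probe sets had positive changes, between 0.16 and 0.57, although they read the same gene and are no replicates. The call did not hold without WT2 (adjusted p = 0.098), WT3 (0.0589), KO1 (0.237) or KO2 (0.107).

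Dnajc21, a factor of large ribosomal subunit assembly known from yeast and human cells, had 9.80 and 9.68 in Dicer-deficient cells, against 9.43, 9.31 and 9.11 in wild-type cells (log2 change 0.46, SE 0.109, adjusted p = 0.0264). Without WT2, KO1 or KO2 the adjusted p was 0.103, 0.238 and 0.145. Dnajc16, of the ER membrane, had 7.79 and 7.62 in Dicer-deficient cells and 7.46, 7.28 and 7.34 in wild-type cells (log2 change 0.345, SE 0.0935, adjusted p = 0.0424), a call lost without any 1 of the 5 arrays (adjusted p from 0.0596 to 0.265). The 19 genes of this class that did not pass had changes between -0.42 and 0.275. Dnajc10, an ER reductase with a J domain, had 8.29 and 7.90 in Dicer-deficient cells, against 8.46, 8.45 and 8.28 in wild-type cells, with groups that overlapped (log2 change -0.30, adjusted p = 0.169). Dnajc8, a splicing-associated DnaJ, had a change of -0.28 that passed with array weights (adjusted p = 0.0255) and without WT3 (0.037). Dnajc12 had 5.28 and 5.79 in Dicer-deficient cells and 5.95, 5.93 and 5.98 in wild-type cells (log2 change -0.42, adjusted p = 0.0893), and passed without KO2 (adjusted p = 0.0289) and without dim genes (0.0443).

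Grouped by the place where the proteins work, the calls among ER genes were all higher and those among mitochondrial genes all lower. Of 10 listed ER members, 4 were called higher and 0 lower by limma, namely Hspa13, Dnajb14, Dnajc3 and Dnajc16, with a median log2 change of 0.17 against 0.01 over all genes. Over all genes 8.48% were called higher and 8.6% lower. Of the 11201 genes at or above the median signal, fitted alone, 1765 were called higher and 1894 lower, a larger share. Each of the short lists by place is to be read against both backgrounds. At an unadjusted p under 0.05 the list had 4 higher and 2 lower, Dnajc10 and Dnajc18, against 2719 and 2826 of all 19938 genes. Dnajb11, an ER lumen cochaperone of BiP, had 8.71 and 8.78 in Dicer-deficient cells, against 8.80, 8.64 and 8.62 in wild-type cells, and did not pass (adjusted p = 0.768). Of 10 mitochondrial members, 3 were called lower and 0 higher by limma, namely Dnajc15, Hspe1 and Dnajc4, with a median of -0.06, and 4 lower and 0 higher had an unadjusted p under 0.05. Members known mainly from testis had 2 of 9 higher, Hspa2 and Dnajc5b, and 0 lower. Most of this list, namely Hspa1l, Dnajb3, Dnajb7, Dnajb8, Dnajc5b and Dnajc5g, had both means below the median signal. A signal above background was not shown for them. Members of the nucleus and ribosome had 1 of 6 higher, Dnajc21, and 0 lower, and members of vesicles and endosomes 1 of 4 higher, Dnajc13, and 1 lower, Dnajc5. These lists were drawn up with earlier results of these data known, so the counts are descriptions.

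Of 57 measured partner genes of the chaperone network, 1 was called higher and 11 lower, or 1.75% and 19.3% against 8.48% and 8.6% of all genes. The split depended on the test. A further quantile normalization gave 5 higher and 10 lower, and an intensity trend 3 and 9. An unadjusted limma p under 0.05 gave 7 and 15, against 2719 and 2826 of all 19938 genes. Nearly all partner genes had a mean signal at or above the median of all probe sets. Without dim genes, 1 partner was called higher and 12 lower, against 1765 and 1894 of all 11201 genes in that fit. The background of lower calls among genes of like signal was thus above 8.6%, and no excess is read from the 19.3%. Prefoldin, which hands newly made actin and tubulin to the CCT chaperonin, and CCT itself had 4 of 14 genes lower and 0 higher by limma (5 lower and 2 higher at an unadjusted p under 0.05). Pfdn6 had 8.29 and 8.21 in Dicer-deficient cells, against 9.37, 9.24 and 9.23 in wild-type cells, a 2.04-fold lower level that kept its call without each array (log2 change -1.03, SE 0.0836, adjusted p = 0.000304). The others lower were Pfdn5 (-0.51), Cct4 (-0.37) and Pfdn2 (-0.34). Among 17 HSP90 partners, 4 were lower: Fkbp5, a glucocorticoid-regulated immunophilin, with a change of -0.72, the kinetochore and HSP90 adaptor Sugt1 with -0.69, Aarsd1 with -0.46 and Nudc with -0.36. Sugt1 lies on chromosome 14. Fkbp5 had 8.74 and 8.99 in Dicer-deficient cells and 9.52, 9.59 and 9.65 in wild-type cells, and kept its call without each array (adjusted p from 0.0175 to 0.0479). Of 14 HSP70 partners, the nucleotide exchange factors Bag4 (-0.51) and Bag1 (-0.29) were lower. Of the 12 calls among partner genes, those of Pfdn6 and Fkbp5 alone held without every array in turn. The calls of Pfdn5, Nudc, Pfdn2 and Bag1 were each lost without 4 or 5 of the arrays (adjusted p from 0.0502 to 0.271), and that of Cct4 without WT2 or either Dicer-deficient array (0.0889 to 0.175). Sugt1 and Aarsd1 lost theirs without either Dicer-deficient array (0.0626 to 0.0988), and Bag4 without KO1 (0.0675).

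**Figure D5:**
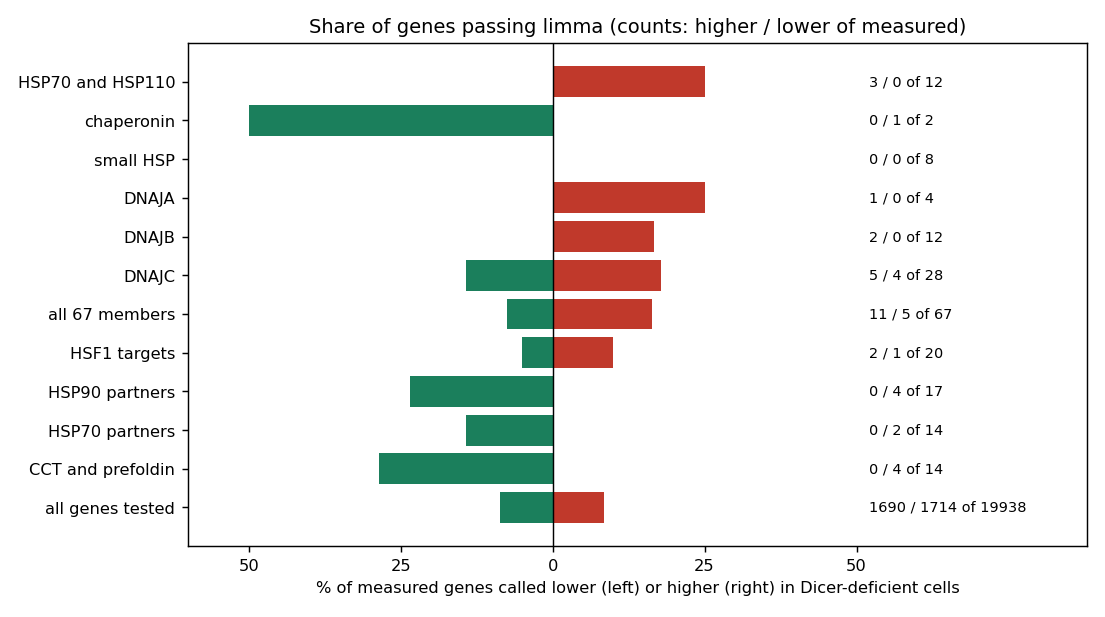
Percent of measured genes called lower (green, left) or higher (red, right) in Dicer-deficient cells, by family and list, with counts at the right. HSP90, with 1 gene measured and not called, is left out. The drawn lists of HSP90 partners, HSP70 partners, and CCT and prefoldin have lower calls and 0 higher, while the 67 chaperone genes show 11 higher and 5 lower and all genes 1690 and 1714.

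Among the heat shock regulators, 1 of 4 measured genes was called, lower. Hsf2, a relative of HSF1, had 7.29 and 7.12 in Dicer-deficient cells, against 7.58, 7.45 and 7.59 in wild-type cells (log2 change -0.335, SE 0.0907, adjusted p = 0.0423), and lost its call without any 1 of the 5 arrays (adjusted p from 0.0797 to 0.25). Hsf1 had no probe set named for it alone and is not analysed here. Of 20 measured HSF1 targets, 11 of which are among the 67 genes, 2 were called higher, Hsph1 and Cryab, and 1 lower, Hspe1, or 10% and 5% against 8.48% and 8.6% of all genes. Both Dicer-deficient values lay above the wild-type range for 10 of the 20 and below it for 1, against 20% and 19.9% of all genes. Of the 20, 18 had a mean at or above the median signal. The share of such separation among genes of like signal was not computed. A further quantile normalization and an intensity trend each called 4 higher and 1 lower. The median change was 0.10 against 0.01 over all genes. At an unadjusted limma p under 0.05 there were 5 genes higher and 1 lower, against 2719 and 2826 of all 19938 genes. Cryab, a small heat shock protein of lens and muscle, had 6.69 and 6.57 in Dicer-deficient cells and 5.82, 6.08 and 6.21 in wild-type cells (log2 change 0.59, SE 0.122, adjusted p = 0.0145), a call lost without WT2 (adjusted p = 0.0716) or either Dicer-deficient array (0.127 to 0.191). Bag3, the stress-induced HSP70 partner, had a change of -0.23 and did not pass (adjusted p = 0.223).

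For 6 of the 67 genes the tested probe set lay, in ID order, among probe sets named for genes of another chromosome than the gene's own. These were Dnaja1, Hsp90aa1, Hspa8, Hspb1, Hspd1 and Hspe1, and whether their probes read further copies of the gene was not tested. With probe sets among neighbours of the gene's own chromosome, 12 chaperone genes were called higher and 5 lower, Dnaja1 being the one added.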

How the data were processed

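RNA of 5 cultures was measured on Affymetrix whole-transcript arrays, with biotin-labelled cRNA per the labels' protocols. The authors deposited 1 normalized value for each of 35556 probe sets per array, rounded to 2 decimals. Their background correction, summarisation and normalization are not given in the sources used here. The log base is unstated too, and the deposited values were read as log2 from their range. Another base would rescale changes and folds and could move the results at 1.5-fold and 1.2-fold, but no p-value of the main test. Arrays were grouped by title. By the platform annotation 21789 probe sets had 1 gene symbol, 1621 several and 12146 none, and only the first kind was named. For 999 genes with several probe sets, among them 8 of the 67 chaperone genes, the brightest by its mean of 5 arrays stood for the gene. All 67 were found by gene identifier in a GRCm38.p6 gene table, with 0 symbols updated.

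Changes were tested with limma (lmFit and eBayes, no covariate, 3 residual and 4.55 prior degrees of freedom) over 19938 genes with Benjamini-Hochberg adjustment at 0.05. SEs and 95% intervals are limma's. The fit was checked on simulated data. Every chaperone gene could be named; those called, and a stated set of main chaperones, are given by array, and further ones were chosen after their values were seen. From the other lists, called genes, Hsf2 and Bag3 are named. The members and lists were chosen with earlier results of these data known. Promoter windows of 300 bases are RefSeq's. R 4.3.3, limma 3.58.1, Python 3.11.15, pandas 2.3.3, numpy 2.4.6 and matplotlib 3.10.9 were used.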

Additional observations from a re-analysis of the deposited data

How the results depend on the processing

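With 5 arrays the number of calls moved with the choice of arrays and test. The direction of all 16 called chaperone genes was kept in every alternative that tested them. As their groups did not overlap, leaving out, weighting or blocking arrays could not reverse it. Other variance models and stricter thresholds reuse the same changes, so the kept direction adds little support. Without 1 array in turn, 0 to 6 chaperone genes were called higher and 2 to 5 lower, 0 to 1 partner genes higher and 2 to 10 lower, and 0 to 3 HSF1 targets higher and 0 to 1 lower, and the Dicer1 change ran from -2.0 to -1.64. Over all probe sets 3 chaperone genes were higher and 2 lower, partners 0 and 6, and HSF1 targets 0 and 0. A minimum of 1.5-fold left 0 and 2, partners 1 and 3, targets 1 and 0; a test against 1.2-fold (treat) left 0 and 2, partners 0 and 3, targets 0 and 0. Without dim genes 8 chaperone genes were lower. A further quantile normalization gave 5 partners and 4 targets higher, an intensity trend 3 and 4, and array weights 2 partners higher. Over all genes, 1690 higher and 1714 lower calls became 1036 and 922 over all probe sets. For the 28 called chaperone and partner genes, 319 of 499 alternative values kept the call, 180 lost it and 0 reversed, and for 52 genes not called 15 of 922 gained one. The groups did not overlap for any of the 28, so most alternatives could not reverse a sign. Without chromosomes 14 and Y, 10 chaperone genes were higher and 4 lower, and partners 1 and 10. Probe sets of the gene's own chromosome were an alternative chosen after seeing the data.

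With the replicate number as a block, 1 chaperone gene was higher (Dnajc5b) and 1 lower (Dnajc15), partners 0 and 2, HSF1 targets 0 and 0, and all genes 477 and 417. The block drops wild-type array 3 from the comparison. The numbers were not taken as pairs, since only 2 are shared. The deviations of same-numbered arrays from their group means correlated at 0.05 and 0.01. With 2 Dicer-deficient arrays their deviations mirror each other, so these values cannot show whether pairs exist. Where a cause is not plain from fewer arrays or a stricter test, the cause was not tested. Signals below the median of all probe sets, seen in both groups for 15 chaperone genes, were not shown to be above background.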
